A study of Mus musculus with 36 samples.

Results

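The 7 genes described here mark antibody-secreting and B cells (Jchain, Mzb1, Pou2af1, Tnfrsf17, Cd79a and Cd79b) or carry antibody across epithelia (Pigr). They were chosen as a list of named genes out of 24561 genes in the tables of the main olfactory epithelium (MOE) and 24555 in those of the vomeronasal organ (VNO) and the olfactory bulb (OB), and all 7 were found in all 3 tissues. RNA-seq gave their levels in 36 libraries, with 12 per tissue and 3 in each of 4 groups of C57BL/6 mice at 6 months of age. Sex-separated females (SF) and sex-separated males (SM) lived from weaning in cages and rooms that held only their own sex, while sex-combined females (CF) and males (CM) shared cages. The CF females gave birth, and their pups were removed within a day, so that housing and breeding cannot be told apart, nor can sex-separated housing and room. Each library is a pool of RNA from several mice, the number of which differs between the labels and the methods, and the same mice gave all 3 tissues.

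Plasma cells are B cells that have turned into antibody factories. In mucosal tissues and glands most of them make IgA, and the J chain links the IgA units into the dimer that the polymeric immunoglobulin receptor, Pigr, takes up at the base of an epithelial cell and carries into the secretion. Jchain is therefore a product of the antibody-secreting cell, and Pigr a product of the gland or surface epithelium that receives it. Mzb1 is a chaperone of immunoglobulin assembly in the endoplasmic reticulum, Pou2af1 is a coactivator that works with octamer-binding factors on immunoglobulin genes, and Tnfrsf17 (BCMA) is a survival receptor of plasma cells. Cd79a and Cd79b are the signalling chains of the B cell receptor. The genes for the immunoglobulin chains themselves were not analysed here.

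Levels are in FPKM, the authors' count of sequenced fragments divided by transcript length and by the size of the library, and the genes lie at separate places in the build mm9. Jchain spans chr5:88948834-88956922 and Pigr chr1:132723261-132748826. Pou2af1 lies at chr9:51021795-51048184, Cd79a at chr7:25682530-25687216, Cd79b at chr11:106172655-106175876 and Tnfrsf17 at chr16:11313902-11320161. No other gene of the tables overlapped any of the 7. The promoters of the 2 abundant genes are shown because the results below turn on them; they are from RefSeq on GRCm38.p6 and run from 250 bases before to 50 bases after the start of the gene, in the direction of transcription.
Jchain promoter, chr5:88527848-88528147, minus strand: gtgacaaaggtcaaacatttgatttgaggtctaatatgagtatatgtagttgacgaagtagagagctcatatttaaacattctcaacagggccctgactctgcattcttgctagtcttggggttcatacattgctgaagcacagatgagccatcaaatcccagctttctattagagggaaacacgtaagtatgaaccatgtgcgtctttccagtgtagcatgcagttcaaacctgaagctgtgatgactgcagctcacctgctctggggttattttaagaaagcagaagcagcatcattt
Pigr promoter, chr1:130826434-130826733, plus strand: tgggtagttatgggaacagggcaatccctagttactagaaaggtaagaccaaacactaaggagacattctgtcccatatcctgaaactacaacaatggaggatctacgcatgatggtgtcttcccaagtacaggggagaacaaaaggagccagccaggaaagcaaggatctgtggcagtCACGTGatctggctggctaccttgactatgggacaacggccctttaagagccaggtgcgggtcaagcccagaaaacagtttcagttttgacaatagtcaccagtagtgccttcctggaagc

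Capitals mark an E box, CACGTG, whose first base lies at position -71 from the start of Pigr. Promoters of 5 of the 7 genes (Jchain, Pigr, Pou2af1, Cd79a and Tnfrsf17) were searched on both strands for 3 motifs of letters. The octamer ATGCAAAT, which Pou2af1's partners bind, was in none of the 5 and in 1.74% of 32851 promoters of the same length. CCCNNGGG, the core that the B cell factor EBF1 binds, was in none of the 5 and in 13.7% of all promoters. CACGTG, which was added after the sequences had been seen, was in the Pigr promoter alone and in 7.15% of all. These are matches of letters and were not tested as binding sites.

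Pigr and Jchain were abundant in the nose, above all in the VNO, and both were at or near the limit of detection in the OB. Pigr ranged from 64.2 to 84.5 FPKM in the 12 VNO libraries (72.0 ± 6.99, SD, n = 12) and from 6.16 to 23.1 in MOE (11.5 ± 4.12, n = 12). Its lowest VNO library was thus above its highest MOE library. In OB, Pigr was listed at 0 in 5 of 12 libraries and its highest value was 0.0458 FPKM, which rests on an estimated 4 fragments. Jchain ranged from 2.88 to 41.9 FPKM in VNO (20.4 ± 12.9), from 1.38 to 10.7 in MOE (5.53 ± 2.60) and from 0.0166 to 0.326 in OB (0.110 ± 0.0881). The spread across VNO libraries differed between the 2 genes, with a coefficient of variation of 63.0% for Jchain and 9.70% for Pigr.

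**Figure D1:**
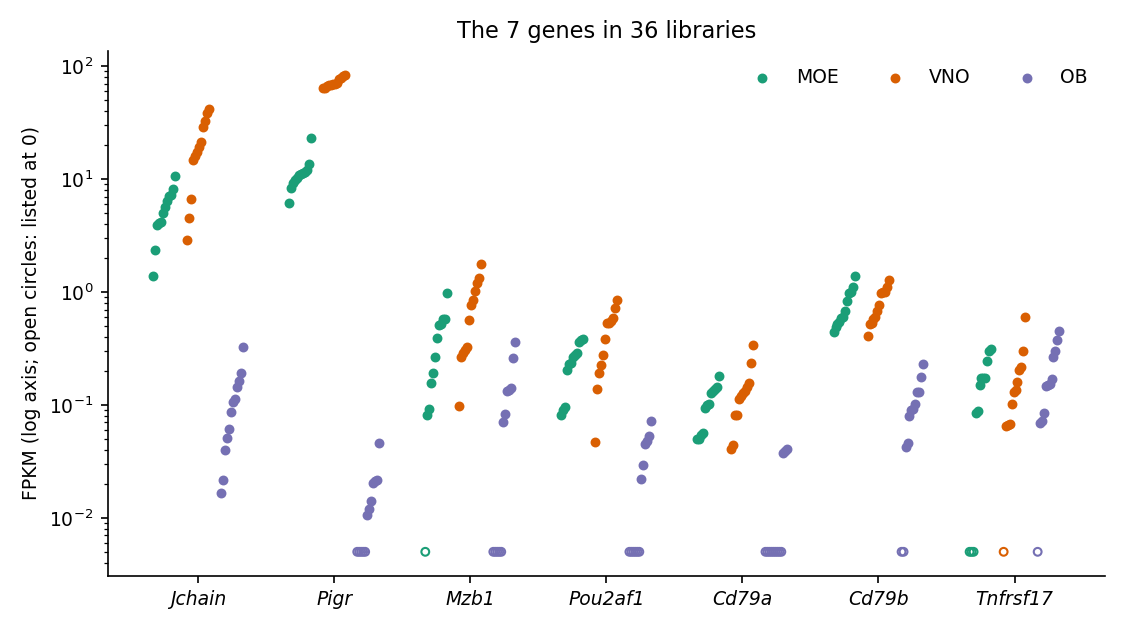
FPKM of each of the 7 genes (horizontal axis) in each library, on a log axis, with libraries of a tissue in rising order and libraries listed at 0 drawn as open circles at the bottom. Pigr and Jchain stand above the other 5 genes in MOE and VNO, reaching 84.5 and 41.9 FPKM in VNO, and no OB library is above 0.448 FPKM for any of the genes.

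Tissues were compared with limma on log2(FPKM + 0.5) over all 36 libraries, with p-values adjusted by the Benjamini-Hochberg method over 14592 genes. Of the 7 genes, 3 (Jchain, Pigr and Cd79b) had the mean of 0.5 FPKM that was needed to enter. Pigr was higher in VNO than in MOE, with a log2 difference (MOE minus VNO) of -2.65 (SE 0.0772, adjusted p = 3.18e-23), and Jchain differed in the same direction by -1.59 (SE 0.177, adjusted p = 2.27e-09). Against OB, the differences for Pigr were 4.49 in MOE and 7.14 in VNO (adjusted p = 1.06e-29 and 9.98e-35), and for Jchain they were 3.17 and 4.77 (adjusted p = 1.76e-16 and 5.07e-21). Since OB holds almost no fragments of either gene, these values depend on the 0.5 that was added and are no measure of fold. Most genes differ between the tissues. Of all genes tested, 82.6% passed between MOE and VNO (34.0% lower in MOE), 85.0% between MOE and OB (45.7% higher in MOE) and 85.8% between VNO and OB (37.8% higher in VNO), so that passing is no particular feature of Jchain and Pigr.

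Cd79b was about as high in MOE as in VNO. It was at 0.763 ± 0.298 FPKM in MOE and 0.789 ± 0.274 in VNO (SD, n = 12), with 6.4 to 19.9 and 4.7 to 26.0 estimated fragments per library. The log2 difference was -0.03 (SE 0.0974, 95% interval -0.23 to 0.17, adjusted p = 0.760). In OB its mean was 0.0932 FPKM, and both nasal tissues were above it by about 1.1 on the log2(FPKM + 0.5) scale (adjusted p = 2.33e-11 for MOE and 1.15e-11 for VNO).

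The other 4 genes were low everywhere. Mzb1 had a mean of 0.732 FPKM in VNO, 0.362 in MOE and 0.0985 in OB, and Pou2af1 had 0.420, 0.241 and 0.0225. Cd79a had 0.135, 0.102 and 0.00980, and it was listed at 0 in 9 of 12 OB libraries. Tnfrsf17 was at 0.171 in VNO, 0.142 in MOE and 0.187 in OB, on a median of 2 fragments in each tissue, so that no order of the tissues can be read for it at this depth. A gene was held to be at the floor when a library had 3 estimated fragments or fewer, and medians of 2 to 2.5 fragments put Cd79a and Tnfrsf17 there in MOE and VNO. In bulk tissue, fewer cells of a type and less RNA per cell cannot be told apart.

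Jchain had its lowest group mean in sex-separated females in both nasal tissues. In VNO, the 3 SF libraries had 6.73, 4.54 and 2.88 FPKM, the SM libraries 16.2, 38.5 and 19.5, the CF libraries 17.3, 28.8 and 41.9, and the CM libraries 21.2, 14.8 and 32.8. All 3 SF libraries lay below all 9 others, whose lowest was 14.8. The group means were 4.72 ± 1.93 in SF, 24.7 ± 12.03 in SM, 29.3 ± 12.3 in CF and 22.9 ± 9.16 in CM (SD, n = 3), which puts SM at 5.24 times, CF at 6.22 times and CM at 4.86 times the SF mean. These values rest on 117 to 1964 estimated fragments per library. Of all VNO genes tested, 2.83% had all SF libraries below the 9 others.

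By limma, none of these differences passed after adjustment over all genes. The VNO log2 difference between SF and SM was -2.24 (SE 0.406, unadjusted p = 0.000143, adjusted p = 0.116), the 17th smallest p of 13814 genes. Between SF and CF it was -2.50 (SE 0.406, unadjusted p = 5.48e-05, adjusted p = 0.251), and only 1 gene had a smaller p. CF and CM did not differ beyond their spread, at 0.33 with a 95% interval from -0.55 to 1.22 (adjusted p = 1), nor did SM and CM, at 0.08 with an interval from -0.81 to 0.97 (adjusted p = 1). The interaction, which asks whether the sex difference changes with housing, was -2.58 (SE 0.575, unadjusted p = 0.000789, adjusted p = 0.894) and had the 8th smallest p. Of all 13814 genes, 10 (0.0724%) passed between SF and SM, and by limma 0 did for SF and CF and for the interaction, where 1522 and 731 genes had an unadjusted p under 0.05.

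In MOE, SF again had the lowest mean and CM the next, and the groups were closer. Jchain was at 2.37, 4.18 and 1.38 FPKM in SF, 4.07, 10.7 and 7.24 in SM, 4.99, 7.12 and 8.21 in CF, and 6.47, 5.71 and 3.89 in CM. The SF libraries were all below the CF libraries, as were those of 2.16% of genes tested, while the second SF library overlapped 1 SM and 1 CM library. The means were 2.64 ± 1.42 in SF, 7.34 ± 3.32 in SM, 6.77 ± 1.63 in CF and 5.36 ± 1.32 in CM. The log2 difference was -1.32 between SF and SM (SE 0.326, unadjusted p = 0.000838, adjusted p = 0.329) and -1.28 between SF and CF (SE 0.326, unadjusted p = 0.00109, adjusted p = 0.625). The interaction was -1.64 (SE 0.462, adjusted p = 0.812). The MOE and VNO libraries come from the same mice, so they are not 2 independent sets of animals. In OB, Jchain had 1 to 11 fragments per library, too few for a comparison of groups.

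**Figure D2:**
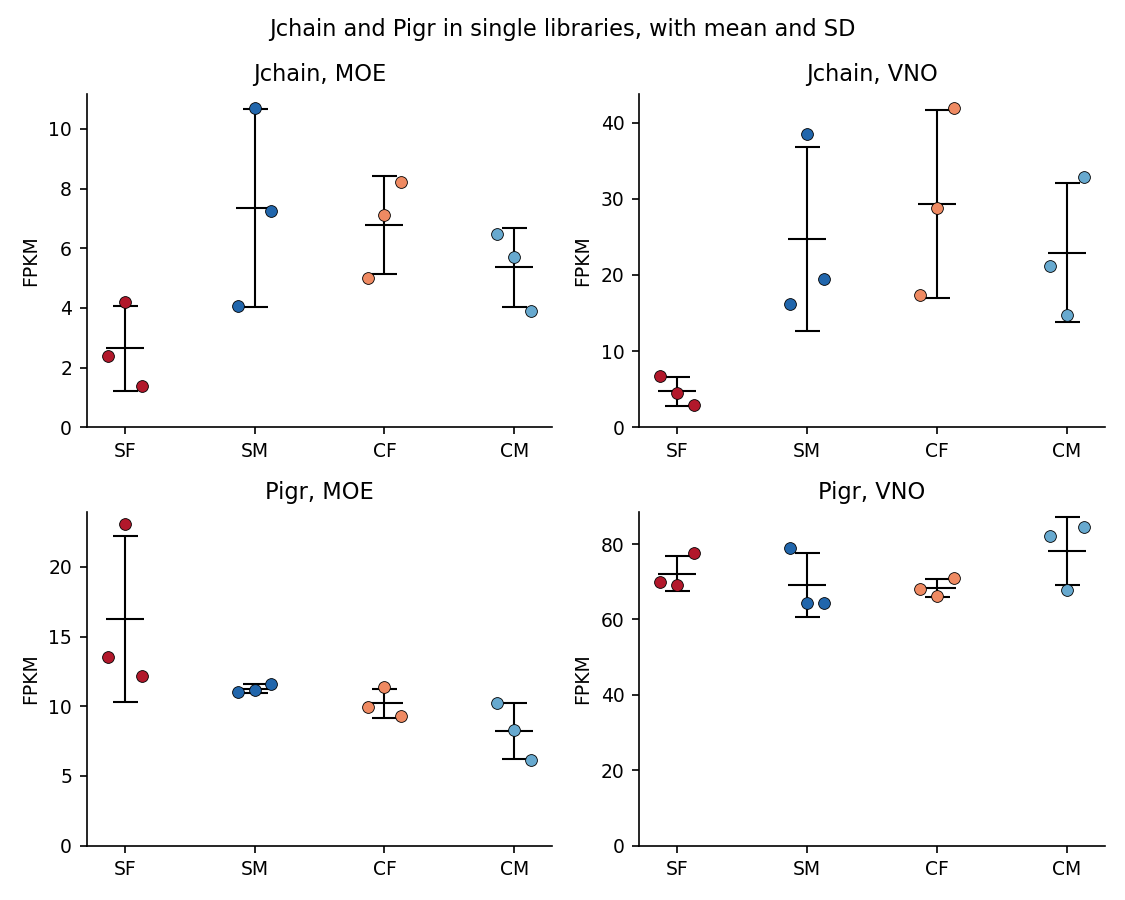
FPKM of Jchain (top) and Pigr (bottom) in MOE (left) and VNO (right), with 1 point per library and the mean and SD of the 3 libraries of each group; each panel has its own axis from 0. The 3 SF points of Jchain in VNO lie at or below 6.73 and the 9 others at or above 14.8, while Pigr in VNO stays between 64.2 and 84.5 in all groups and in MOE is highest in SF.

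The epithelial receptor gene Pigr had overlapping levels in all VNO groups. Pigr was at 69.9, 69.0 and 77.6 FPKM in SF, 79.0, 64.4 and 64.2 in SM, 68.0, 66.3 and 71.0 in CF, and 82.3, 68.0 and 84.5 in CM, with no group apart from the others. The log2 difference was 0.07 between SF and SM (95% interval -0.18 to 0.31, adjusted p = 0.860) and 0.07 between SF and CF (interval -0.17 to 0.32, adjusted p = 0.791). For CF and CM it was -0.19 (interval -0.43 to 0.06) and for SM and CM -0.18 (interval -0.42 to 0.06), both with an adjusted p of 1.

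In MOE, Pigr was highest in SF. The SF libraries had 13.5, 23.1 and 12.2 FPKM, SM had 10.99, 11.2 and 11.6, CF had 9.94, 11.4 and 9.28, and CM had 10.2, 8.30 and 6.16. All SF libraries were above the 9 others, whose highest was 11.6, a pattern that 0.852% of genes tested in MOE had. The log2 difference was 0.46 between SF and SM (SE 0.228, adjusted p = 1) and 0.60 between SF and CF (SE 0.228, unadjusted p = 0.0182, adjusted p = 1). Without the second SF library they were 0.18 and 0.32. That library also had the highest summed level of the nasal gland genes listed here, 41811 FPKM against 14481 to 26169 in the other 11. Much of that sum is a single gene, Obp1a, whose highest MOE value was 22178 FPKM. Its mean was 10002 FPKM in SF and 3825 to 4474 in the other groups, so the sum does not stand for the whole list. The part of gland genes in the Pigr values was not tested. SF had the highest mean for 40.7% of all MOE genes tested.

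**Figure D3:**
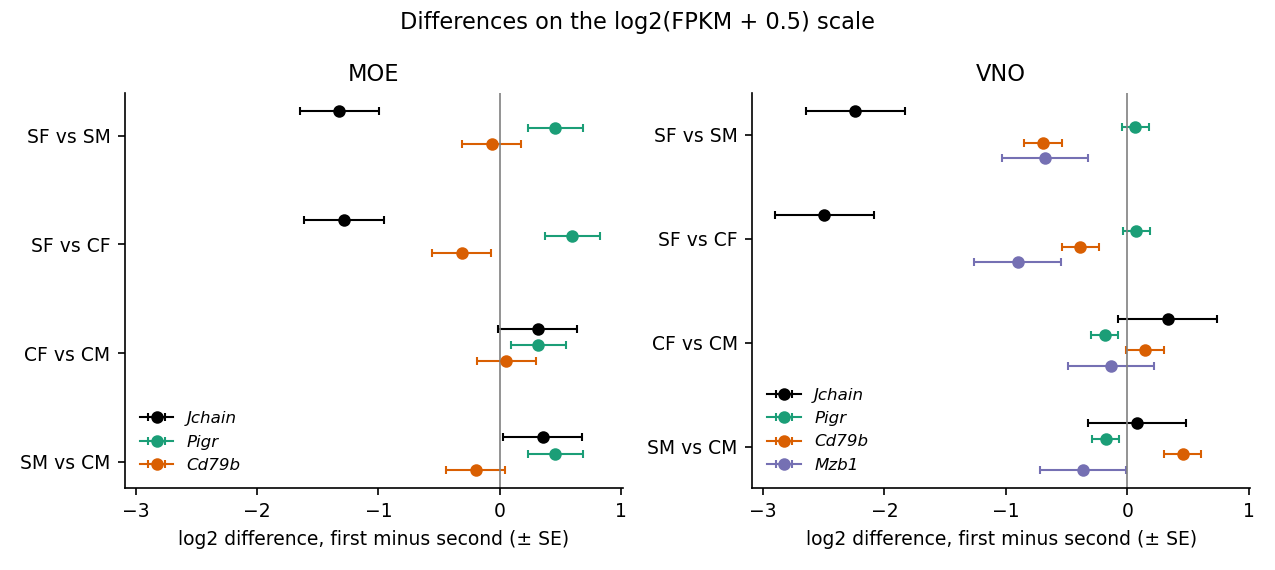
Log2 differences (first group minus second, horizontal axis, with SE) of the genes abundant enough to be tested in MOE (left) and VNO (right), for SF and SM, SF and CF, CF and CM, and SM and CM. Jchain lies at -2.24 and -2.50 in the 2 VNO comparisons that involve SF and at -1.32 and -1.28 in MOE, none with an adjusted p under 0.05.

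The plasma cell genes Mzb1 and Pou2af1 had their lowest means in SF as well, on few fragments. Pou2af1 in VNO was at 0.139, 0.191 and 0.0473 FPKM in SF, 0.549, 0.730 and 0.227 in SM, 0.275, 0.535 and 0.584 in CF, and 0.538, 0.382 and 0.842 in CM. All SF libraries were below the 9 others, as for 2.83% of genes tested, with 14 fragments in SF against 52.8, 57.0 and 76.0 in SM, CF and CM. In MOE, Pou2af1 was at 0.0900, 0.204 and 0.0821 in SF, below all SM libraries (0.229 to 0.385), as for 6.53% of genes tested, and all CF libraries (0.235 to 0.375), as for 2.16%, while CM (0.0959 to 0.363) overlapped. Its mean was under the limit for testing in both tissues, so the shares given are over genes with higher means.

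Mzb1 in VNO was at 0.0974, 0.265 and 0.329 FPKM in SF, 0.291, 1.33 and 0.566 in SM, 0.310, 0.853 and 1.76 in CF, and 0.769, 1.19 and 1.02 in CM. The SF libraries overlapped the lowest of SM and CF. The log2 difference was -0.68 between SF and SM (SE 0.355, adjusted p = 0.602) and -0.90 between SF and CF (SE 0.355, unadjusted p = 0.0261, adjusted p = 0.420). In MOE, Mzb1 had 6 fragments in the 3 SF libraries together, 22 in SM, 14 in CF and 11 in CM, and 1 SF library was listed at 0. Summed over Mzb1, Pou2af1, Cd79a and Tnfrsf17, the SF libraries of VNO held 8 to 15 fragments each and the libraries of the other groups 19 to 57, while in MOE the SF libraries (6 to 18) overlapped the others (5 to 35). These sums are not scaled to depth, and the first SF library had the fewest fragments of VNO (3373400). No share over all genes is given for them. Pou2af1 alone already set the same VNO libraries apart, so the sum is no separate result.

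**Figure D4:**
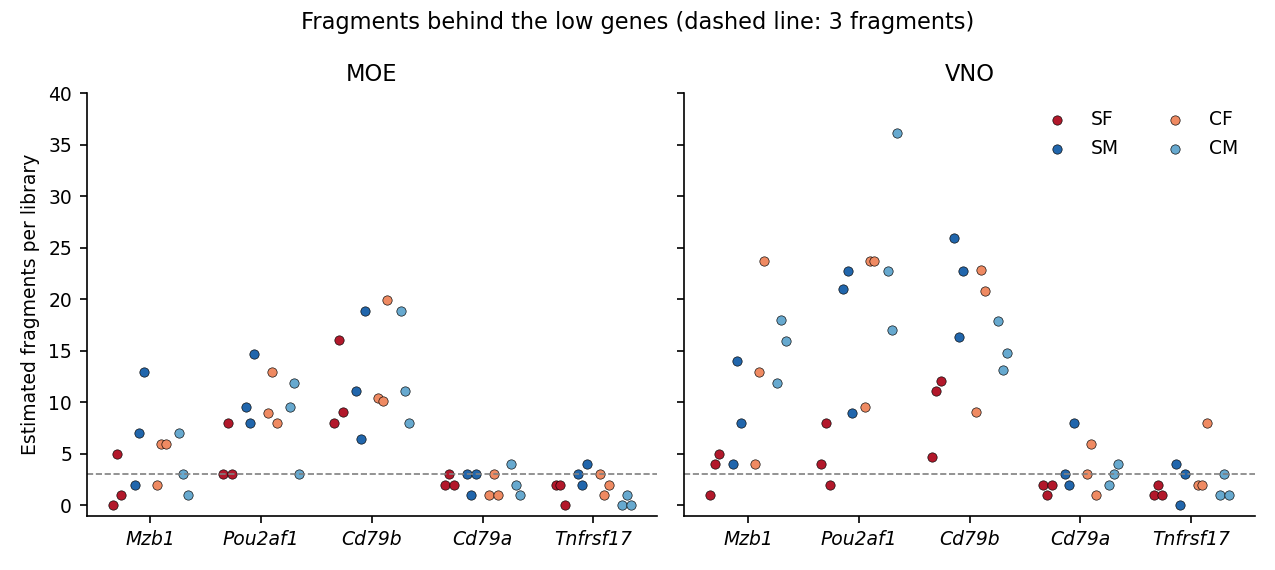
Estimated fragments per library (vertical axis, not scaled to depth) of the 5 low genes in MOE (left) and VNO (right), coloured by group, with a dashed line at 3 fragments. Pou2af1 in VNO has 2 to 8 fragments in the SF libraries and 9 or more in all others, and most points of Cd79a and Tnfrsf17 lie at or under the line.

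Of the B cell receptor chains, Cd79b had the higher level per length. Cd79b in VNO was at 0.409, 0.537 and 0.576 FPKM in SF, 1.27, 1.01 and 1.11 in SM, 0.524, 0.993 and 0.977 in CF, and 0.772, 0.602 and 0.686 in CM, so that SM was above all other libraries, as for 0.434% of genes tested. The log2 difference was -0.69 between SF and SM (SE 0.154, unadjusted p = 0.000739, adjusted p = 0.245), -0.38 between SF and CF (SE 0.154, adjusted p = 0.424) and 0.46 between SM and CM (SE 0.154, unadjusted p = 0.0119, adjusted p = 1). In MOE, Cd79b ranged from 0.442 to 1.40 FPKM with all groups overlapping. Cd79a had 1 to 8 fragments per library in VNO and 1 to 4 in MOE, and its groups overlapped in all comparisons made. Tnfrsf17 had 0 to 8 and 0 to 4 fragments, and no order of groups is given for it.

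Counted over the list, SF had the lowest mean of the 4 groups for 6 of the 7 genes in VNO (all but Pigr), for 4 in MOE (Jchain, Mzb1, Pou2af1 and Cd79b) and for 3 in OB. In VNO this is near the background, because SF had the lowest mean for 59.7% of all genes tested there, whereas in MOE it did so for 11.9% and in OB for 31.6%. These shares cover only genes with a mean of at least 0.5 FPKM, while the counts also take in listed genes below it. In MOE, Mzb1 and Pou2af1 rest on 6 and 14 fragments in SF, so the sets are not alike. No listed gene passed an adjusted p of 0.05 in any of the 6 comparisons of sex and housing in MOE (3 genes tested) or VNO (4 genes tested), and none could be tested in OB. At an unadjusted limma p under 0.05, in VNO 2 of the 4 stood out between SF and SM (Jchain and Cd79b, beside 8.82% of all genes) and 3 between SF and CF (with Mzb1, beside 11.0%), and in MOE 1 and 2 of the 3 (beside 4.18% and 2.05%). Few genes passed at all. In MOE, the share of all genes tested was 0.102% between SF and SM, 0.0437% for the same comparison under sex-combined housing, 0.0728% between females and males, 0.051% between SF and CF, 0.0656% between SM and CM and 0.0364% for the interaction. In VNO it was 0.0724%, 0.0434% and 0.123% for the first 3 of these and 0.0% for the others.

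The levels of Jchain and Mzb1 were correlated over the MOE libraries, with Mzb1 on few fragments. Mzb1 had 0 to 13 estimated fragments per MOE library (median 4), so that several libraries were at the floor. Over the 12 MOE libraries, Jchain and Mzb1 had a Pearson r of 0.81 (permutation p = 0.00114, adjusted over 18 pairs 0.0103) and a Spearman rho of 0.92 (adjusted permutation p = 0.00090), and r was 0.75 without the 2 libraries farthest from the median of Jchain. In the 9 MOE libraries outside SF, r was 0.80 (permutation p = 0.00999, adjusted p = 0.180). For Jchain and Pou2af1 in MOE, r was 0.71 (permutation p = 0.00886, adjusted p = 0.0399) with a rho of 0.62 (permutation p = 0.0371, adjusted p = 0.167), and r fell to 0.37 without the 2 farthest libraries, so that the relation rests on those. In the 9 MOE libraries outside SF, Jchain and Pou2af1 had an r of 0.31 (permutation p = 0.428, adjusted p = 0.855) and a rho of 0.13 (permutation p = 0.745, adjusted p = 0.894). In VNO, SF stands apart, and no r of Jchain with the other listed genes over all libraries is given. In the 9 VNO libraries outside SF, r was 0.71 for Mzb1 and 0.68 for Pou2af1 (permutation p = 0.0381 and 0.0483, both adjusted to 0.290) and -0.02 for Pigr (permutation p = 0.952).

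With each library set against its group mean, all 18 pairs missed the threshold. The strongest were Jchain with Pou2af1 in VNO (r = 0.77, exact permutation p = 0.0239, adjusted p = 0.231), with Mzb1 in MOE (r = 0.76, exact permutation p = 0.0309, adjusted p = 0.231) and with Pigr in MOE (r = 0.66, exact permutation p = 0.0386, adjusted p = 0.231). For Jchain and Pigr the sign was the opposite over the 12 MOE libraries as they are (r = -0.19, permutation p = 0.536). In the 9 MOE libraries outside SF their r was 0.52 (permutation p = 0.147, adjusted p = 0.529). Because MOE and VNO came from the same mice, the Jchain deviations of libraries with the same group and number were also compared between the tissues. Their r was 0.50 over 12 pairs (exact permutation p = 0.172, adjusted over the 7 genes 0.547), and 7 of the 12 pairs deviated in the same direction. Whether equal numbers mark the same mice is not stated.

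The genes whose log2 level most resembled that of Jchain over the 12 VNO libraries, as a description with no test, were Jade2 (r = 0.95), Foxj2 (r = 0.95) and Tmie (r = 0.93), out of 12125 genes compared. All 3 had their lowest mean in SF, for example 1.92 FPKM for Jade2 against 2.59 to 2.60 in the other groups. That order follows from how they were picked, since Jchain itself is lowest in SF. SF also had the lowest mean for 59.7% of all VNO genes tested. These r values include the SF libraries, which stand apart, and none outside SF is given. In MOE they were Pex11a, Atxn7l1 and Slamf9 (r = 0.81, 0.79 and 0.77, out of 11915). The genes nearest to Pigr were Soat1, Rrbp1 and Iqca in MOE (each r = 0.93) and Cnnm4, Sema3e and Usp14 in VNO (r = 0.85, 0.82 and 0.80). Soat1, which esterifies cholesterol, was highest in the same SF library as Pigr, at 9.0 FPKM. The genes nearest to Cd79a were Tbata, Polh and Gm14326 in MOE (r = 0.83, 0.81 and 0.80) and Cycs, Vmn1r68 and Il1rap in VNO (r = 0.82, 0.82 and 0.79). Cd79a itself had 1 to 4 fragments per library in MOE and 1 to 8 in VNO. With medians of 2 and 2.5 it is at the floor, so no relation can be read from these r values.

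Other genes of the pathway were taken from lists of known markers. Of 12 further genes of the plasma cell programme, 9 were abundant enough to be tested in MOE and in VNO, and 0 passed between SF and SM or between SF and CF. Xbp1, which drives the secretory programme of plasma cells, was at 56.9 FPKM in VNO and 45.2 in MOE, and Txndc5, a folding enzyme of the endoplasmic reticulum, at 42.8 and 14.3, but gland cells use both. Irf4, a transcription factor that plasma cells need, had 0.218 FPKM in the SF libraries of VNO against 0.381 to 0.479 in the other groups and was too low to be tested. Other genes of the list did not have this order. In VNO, Prdm1, also too low to be tested, was at 0.505 FPKM in SF, 0.432 in SM, 0.523 in CF and 0.425 in CM. Sdc1 was at 11.6, 11.6, 11.8 and 11.1 in the same groups. In VNO, 8 of the 9 had a negative difference between SF and SM, with a median of -0.19. Over all genes tested, 10323 of 13814 were negative in that comparison, with a median of -0.08. In MOE, 3 of the 9 were negative, with a median of 0.08, beside 7526 of 13728 genes with a median of -0.02.

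Of 16 mature B cell genes, 2 could be tested in MOE and 3 in VNO, and 0 passed between these groups. The list was mixed in level. Blnk was highest, at 3.36 FPKM in VNO and 3.46 in MOE. The others tested were Cd72 and Cd37 in VNO (2.08 and 0.732) and Spib in MOE (0.555). Among those too low to be tested, Ms4a1 (CD20) was at 0.230 FPKM in VNO and 0.384 in MOE, and Pax5 at 0.0647 and 0.0636. Of 7 B cell precursor genes only Vpreb3 was tested, at 3.26 FPKM in MOE and 1.09 in VNO. Markers of T cells were low, with a summed level of 10 genes from 0.676 to 1.84 FPKM per library in MOE and from 1.96 to 3.69 in VNO.

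The chemokine gene Ccl25 was the 1 gene of the lists that passed in a comparison of sex or housing. Ccl25 draws cells that carry Ccr9, IgA plasma cells of the gut among them. In VNO it was at 2.76, 1.84 and 2.24 FPKM in SF, 4.0, 4.27 and 4.04 in SM, 3.26, 3.28 and 2.47 in CF, and 4.53, 3.82 and 4.08 in CM. All 6 female libraries were below all 6 male libraries, as for 0.413% of genes tested. The log2 difference of females and males over both housings was -0.58 (SE 0.0892, adjusted p = 0.0354), beside 0.123% of genes that passed, and it was -0.74 under separation (SE 0.126, adjusted p = 0.0820) and -0.41 under combination (SE 0.126, adjusted p = 0.919). The adjusted p was above 0.05, between 0.0534 and 0.118, when any 1 library other than the first SF or the second CF library was left out. Its receptor gene Ccr9 was at 0.221 FPKM in VNO. Ccl28, the chemokine that draws IgA cells to glands, was at 3.66 FPKM in SF, 5.23 in SM, 4.59 in CF and 5.76 in CM in VNO, and its receptor gene Ccr10 at 0.430, 0.660, 0.824 and 0.471. Of the 18 genes of this mucosal IgA list, 10 were tested in VNO, where 9 were negative between SF and SM and 10 between SF and CF, with medians of -0.26 and -0.23. Over all genes tested in VNO, 10323 and 11025 of 13814 were negative in these comparisons, with medians of -0.08 and -0.10.

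Marker genes of some other cells were also lower in SF on the median, with none past the test. Most genes of VNO had a negative difference in these comparisons, 10323 of 13814 between SF and SM and 11025 between SF and CF, and in MOE 7526 and 4778 of 13728 did (medians -0.02 and 0.06). The 6 tested genes of neutrophils and marrow were all negative in VNO between SF and SM (median -0.76) and between SF and CF (median -0.45), and the 7 tested in MOE were all negative too (medians -0.61 and -0.78), none with an adjusted p under 0.05. The same 6 genes were also all negative in VNO between CF and CM (median -0.44), beside 6257 of all genes tested there. The summed level of the list per library was 30.1 to 54.6 FPKM in SF, 47.7 to 59.2 in SM and 38.8 to 61.4 in CF in VNO, and 35.2 to 81.0, 64.0 to 77.1 and 60.5 to 109 in MOE, so the groups overlapped. S100a8, an abundant neutrophil protein, was at 21.7 FPKM in SF and 27.8 in SM in VNO. Of the 15 tested nasal gland genes, 14 were negative between SF and SM in VNO (median -0.37) and 10 between SF and CF (median -0.13), and their summed level was 23496 to 34838 FPKM in SF, below the 35039 to 39266 in SM but overlapping CF (28046 to 35956). Between CF and CM, 13 of the 15 were negative in VNO (median -0.18). The 2 erythroid genes tested in VNO were negative between SF and SM (median -1.38), between SF and CF (median -0.47) and between CF and CM (median -1.49), and in MOE 4 of 5 were between SF and SM (median -0.20) and 5 of 5 between SF and CF (median -0.65). Of the 8 macrophage genes, 2 were negative between SF and SM in each tissue, with medians of 0.03 in VNO and 0.10 in MOE. Between SF and CF, 7 of the 8 were negative in VNO (median -0.09), with 2 at an unadjusted p under 0.05, and 3 of the 8 in MOE (median 0.10). In MOE the third CM library, which had the fewest estimated fragments of that tissue, also had the lowest summed level in most of the marker lists. By the paper it had the most input read pairs of the MOE libraries and the lowest share of aligned reads. The part of these cells in the Jchain values was not tested. Most tissue markers followed the labels. Omp, the marker of olfactory neurons, was at 983 FPKM in MOE and 101 in VNO. Trpc2, the channel of vomeronasal neurons, was at 43.0 FPKM in VNO and 0.938 in MOE. Eomes and Th, which mark bulb neurons, were at 11.4 and 44.1 FPKM in OB and at 1.92 and 0.131 in MOE. Cnga2 and Gng13 were also higher in MOE than in VNO, and Vmn1r51 was higher in VNO. Gnao1 of the VNO list hardly differed, at 4.85 FPKM in VNO and 4.12 in MOE. Calb2 of the OB list was also high in the nose, at 177 FPKM in VNO and 38.9 in MOE.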

How the data were processed

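RNA from MOE, VNO and OB was depleted of ribosomal RNA and made into stranded libraries. The authors aligned the read pairs with TopHat2 2.1.0 to the build mm9 and computed FPKM with Cufflinks 2.2.1.0, and these deposited FPKM values, 1 file per library with confidence limits, are the unit used here. Whether Cufflinks used strand is not given in the sources used here. RefSeq accessions were matched to symbols for 99.37% of entries and FPKM was summed by gene, leaving out genes with a failed estimate (5 for MOE, 1 for VNO and 1 for OB). The fragments behind a value were taken as (FPKM/SE) squared, with the SE read from the confidence limits, and summed to 3016524 to 5902159 fragments per MOE library, 3373400 to 6779893 in VNO and 3592962 to 6437263 in OB. Reads had no molecular identifiers, so these values cover counting error only, and the floor was set at 3 fragments.

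Groups were taken from the labels. Log2(FPKM + 0.5) values of genes with a mean of at least 0.5 FPKM (13728 of MOE, 13814 of VNO, 12770 of OB) were fitted by limma 3.58.1 under R 4.3.3, using a trended eBayes step, with 1 fit of 12 libraries and 4 groups per tissue and 1 fit of 36 libraries for the tissues, without a block, and Benjamini-Hochberg adjustment over all genes tested. The 6 comparisons per tissue were SF and SM, CF and CM, females and males, SF and CF, SM and CM, and their interaction. A fold change on this scale understates that of low genes. With 3 against 3 libraries an exact permutation test cannot give a p under 0.1, so none was used for single genes. Correlations used two-sided tests with 100000 permutations, or all 1296 rearrangements within groups, in Python 3.11.15 (scipy 1.17.1, numpy 2.4.6, pandas 2.3.3, with matplotlib 3.10.9 for the plots). The limma script was tested on simulated data.

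The genes and marker lists were chosen with earlier results of these data known. Named are the 7 genes, the list genes past the threshold or, of each list, up to 4 with the highest means, and the 3 genes nearest to Jchain, Cd79a and Pigr by Pearson r. Irf4, Ms4a1, Pax5, Ccl28, Ccr9, Ccr10 and the tissue markers were named for their role after their values had been seen. Prdm1 and Sdc1 were named as genes whose order differs from that of Irf4. Alternatives were pseudocounts of 0.1 and 1, no filter, upper quartile and quantile scaling, a replicate block, fits without the groups not compared, and each library left out. The reference, GRCm38.p6, was used for symbols and promoters only.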

Additional observations from a re-analysis of the deposited data

How the results depend on the processing

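No listed gene passed an adjusted p of 0.05 in any comparison of sex or housing under any setting run. For Jchain the adjusted p ranged from 0.0863 to 0.382 over the alternatives between SF and SM in VNO and from 0.0788 to 1 in MOE, and the log2 difference stayed negative, from -2.51 to -1.88 and from -1.67 to -1.0. Jchain between SM and CM in VNO reversed to -0.28 without the second SM library and to -0.19 without the second CM library, in a range of -0.28 to 0.37 with 1 library left out. Cd79b between MOE and VNO reversed to 0.093 under quantile normalization and to 0.035 without replicate 2 of every group. Without a filter on low values, 4 listed genes passed between MOE and VNO, 6 between MOE and OB and 6 between VNO and OB, in place of 2, 3 and 3, because more genes were tested. Pairs with Jchain that passed numbered 2 in MOE and 2 in VNO and fell to 0 in both as deviations from group means and without the SF libraries, a setting chosen after seeing the data, and to 1 in MOE under upper quartile scaling. With 1 library left out they ranged from 1 to 2 in MOE and from 1 to 2 in VNO. In VNO it was the third CF library, and in MOE any of the SF libraries, the third SM, the first or second CF or the first CM library, whose absence left 1 pair. The female and male difference of Ccl25 in VNO had an adjusted p of 0.0706 without the filter and 0.0769 under quantile normalization. Whether the replicate numbers pair the libraries was not settled. Deviations of same-numbered libraries in other groups correlated at a mean of 0.0267 (MOE), 0.0663 (VNO) and 0.00207 (OB). For libraries of other numbers the means were -0.0133, -0.0331 and -0.00101. Between MOE and VNO, libraries of the same group and number had a mean of 0.0460, and those of the same group and another number -0.0226. With the replicate block, 0 listed genes passed by sex or housing, and 2, 3 and 3 between the tissues, as without it. The median of all genes was shifted in MOE by 0.17 between SM and CM and by -0.12 in the interaction. Without the third CM library of MOE, which had the fewest estimated fragments of the MOE libraries (3016524), these shifts were -0.016 and 0.076. In VNO the median was shifted by -0.078 between SF and SM and by -0.097 between SF and CF. Without the first SF library of VNO these were -0.034 and -0.053, and 860 genes in place of 1522 had an unadjusted limma p under 0.05 between SF and CF. That library had the fewest estimated fragments in VNO (3373400) and, by the paper, the lowest share of aligned reads there. Depth leaves Cd79a, Tnfrsf17 and, in OB, all 7 genes at or near the floor.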
